A study of Mus musculus with 18 samples.

Results

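The set described here comprises 27 genes of cholesterol synthesis and of the SREBP2 system that senses sterols, measured in ileum cells of mice fed chow or a Western diet (WD). They were chosen by name, and each gene was read at the brightest of the array probes carrying its name. Of the 27 genes, 26 had a probe on the array and all 26 passed the filter on dim probes, while *Acat2* had no probe under that name and was not measured. The array held 37074 gene names, of which 21542 passed the same filter. Gene expression was profiled on 18 one-colour Agilent arrays, where more transcript gives a brighter spot of the matching DNA probe. Pgc1α fl/fl mice, called floxed mice here, had eaten either chow or WD, and iPgc1α-/- mice had eaten WD. Each of these 3 groups had 6 arrays, all from animals on a C57BL6/J background. All animals carried the floxed *Ppargc1a* alleles, and iPgc1α-/- mice also carried Vil1-Cre, whose villin promoter directs recombination to the intestinal epithelium, so other cells of the tissue kept the gene. Mice were 8 weeks old at the start and were fed for 8 weeks before sacrifice after a fast, at Zeitgeber time 3. WD, which the sample labels call a high-fat diet, supplied 42% of kcal as fat and contained 0.2% cholesterol, and no iPgc1α-/- group on chow was analysed here.

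Cholesterol is built from acetyl-CoA through mevalonate, isoprenoid diphosphates, squalene and lanosterol. The transcription factor SREBP2, encoded by *Srebf2*, is held in the endoplasmic reticulum by SCAP and the INSIG proteins when sterols are abundant. When sterols are scarce, SCAP carries it to the Golgi, where the proteases encoded by *Mbtps1* and *Mbtps2* release a fragment that enters the nucleus and raises transcription of the pathway's enzymes. Enterocytes both make cholesterol and take it up from the diet.

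The share of spots well above background was 56.3% to 62.3% per array, with 0 saturated spots. Each brightest probe of the 26 genes was well above background on all 18 arrays. The 3 slides each held 2 arrays of every group. The brighter probe of the targeted gene, *Ppargc1a*, had a mean log2 signal of 11.38 in floxed mice on WD and of 11.67 where the label is iPgc1α-/-, a difference of 0.30 (adjusted p = 0.572). The other tested probe had means of 9.15 and 9.51 in the same groups, a difference of 0.36 (adjusted p = 0.495). The signal was thus not lower at either probe. Their places relative to the deleted exons were not determined, and genotype is given as labelled throughout. All 10 enterocyte markers were well above background on all 18 arrays. Markers of other cells were detected too, with 4 of 6 macrophage and dendritic cell genes, 3 of 7 fibroblast and muscle genes and 1 of 3 endothelial genes well above background on every array.

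The promoters of 6 members are shown because these genes span the early enzymes, the sterol-processing enzymes and the regulators whose signals are compared afterwards. The sequences are the 250 bases before the transcription start on the gene's strand, from RefSeq on GRCm38.p6. Capitals mark matches, on either strand, to the sterol regulatory element TCACNCCAC or to the NF-Y box CCAAT, which reads ATTGG on the opposite strand. *Hmgcs1* lies on the plus strand at chr13:119690101-119690350, *Mvd* on the minus strand at chr8:122443423-122443672 and *Cyp51* on the minus strand at chr5:4104698-4104947. *Msmo1* lies on the minus strand at chr8:64733579-64733828, *Srebf2* on the plus strand at chr15:82147019-82147268 and *Insig1* on the plus strand at chr5:28071162-28071411.
Hmgcs1: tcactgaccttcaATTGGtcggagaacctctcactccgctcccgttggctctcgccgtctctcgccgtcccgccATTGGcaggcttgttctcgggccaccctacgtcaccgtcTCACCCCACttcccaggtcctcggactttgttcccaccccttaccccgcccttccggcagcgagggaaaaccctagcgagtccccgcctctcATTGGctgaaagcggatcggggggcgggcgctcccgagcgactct
Mvd: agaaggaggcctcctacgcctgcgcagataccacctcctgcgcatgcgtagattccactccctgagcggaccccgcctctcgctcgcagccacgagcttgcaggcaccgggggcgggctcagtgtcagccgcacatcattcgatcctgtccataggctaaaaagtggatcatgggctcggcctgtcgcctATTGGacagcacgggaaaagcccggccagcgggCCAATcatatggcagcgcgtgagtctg
Cyp51: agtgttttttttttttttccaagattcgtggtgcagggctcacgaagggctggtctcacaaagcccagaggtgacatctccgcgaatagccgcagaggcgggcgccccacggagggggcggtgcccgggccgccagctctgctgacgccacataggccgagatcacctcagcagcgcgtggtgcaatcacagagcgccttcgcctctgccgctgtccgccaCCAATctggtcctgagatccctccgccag
Msmo1: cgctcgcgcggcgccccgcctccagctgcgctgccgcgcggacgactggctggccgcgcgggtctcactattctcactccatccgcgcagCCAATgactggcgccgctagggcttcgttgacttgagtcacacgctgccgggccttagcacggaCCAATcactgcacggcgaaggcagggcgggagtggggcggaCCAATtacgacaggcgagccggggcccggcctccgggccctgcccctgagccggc
Srebf2: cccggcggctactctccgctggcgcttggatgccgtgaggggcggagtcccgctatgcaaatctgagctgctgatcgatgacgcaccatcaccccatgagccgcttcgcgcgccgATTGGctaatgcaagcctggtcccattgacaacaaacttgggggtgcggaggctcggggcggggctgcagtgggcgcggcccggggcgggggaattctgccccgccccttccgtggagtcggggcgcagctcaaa
Insig1: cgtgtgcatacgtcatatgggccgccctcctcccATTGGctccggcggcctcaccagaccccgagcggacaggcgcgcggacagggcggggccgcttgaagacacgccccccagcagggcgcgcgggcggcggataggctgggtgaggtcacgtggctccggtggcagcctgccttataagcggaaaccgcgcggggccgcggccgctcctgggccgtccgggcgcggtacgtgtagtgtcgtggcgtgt

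SREBP2 is known to bind sterol regulatory elements, often with NF-Y and Sp1 bound close by. Promoters of 300 bases, from 250 before to 50 after the start, were present for 23 of the 27 genes, and *Sqle*, *Fdft1*, *Fdps* and *Stard4* were without an entry. The exact sterol regulatory element occurred in 1 member, *Hmgcs1*, at position -137 relative to its start site, and in 1.44% of the 27025 genes with a promoter. The NF-Y box occurred in 19 of the 23 members (82.6%) and in 41.1% of all genes. A GC box, GGGCGG on either strand, to which Sp1 is known to bind, was found in 20 members (87.0%) and in 38.2% of all genes. Of the 4 motifs searched, the last was the E-box CACGTG, found in 5 members (21.7%) and in 8.09% of all genes. All 12 members with a promoter that fell on WD held an NF-Y box, and so did 7 of the 10 other measured members. A gene with several start sites was counted where any of them held the motif. *Pmvk* and *Insig2*, among the 12, and *Dhcr7*, among the others, lacked an NF-Y box at other start sites. In the members' promoters 0 matches of different motifs overlapped. These matches describe letters in a window, and no binding was measured.

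The first comparison asked how WD altered the pathway in floxed mice. Signals of most enzymes from *Hmgcs1* to *Hsd17b7* were lower on WD, with the deepest fall at *Sqle*, 5.84-fold, followed by *Fdft1* at 4.21-fold. The INSIG genes fell as well, while the last enzymes of the pathway, the SREBP2 escort and both processing proteases did not pass the threshold. In all, 15 of the 26 genes were lower by an adjusted p of 0.05 or less and a fold change above 1.5, which is 57.7% of the genes against 5.20% of all genes tested. None was higher, against 3.22% of all genes. By adjusted p alone 18 were lower, against 14.2% of all genes. The median log2 fold change was -0.79 over the 26 genes and 0.00 over all genes. In 15 of the genes the 6 arrays on WD all lay below the 6 on chow, a pattern seen in 5.29% of all genes. These included *Lbr* and *Mbtps2*, which missed the fold threshold, and left out *Mvk* and *Insig1*, which passed both thresholds. Ileum cells are a mixture, and fewer cells of a type cannot be told apart from less RNA per cell in these data.

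**Figure D1:**
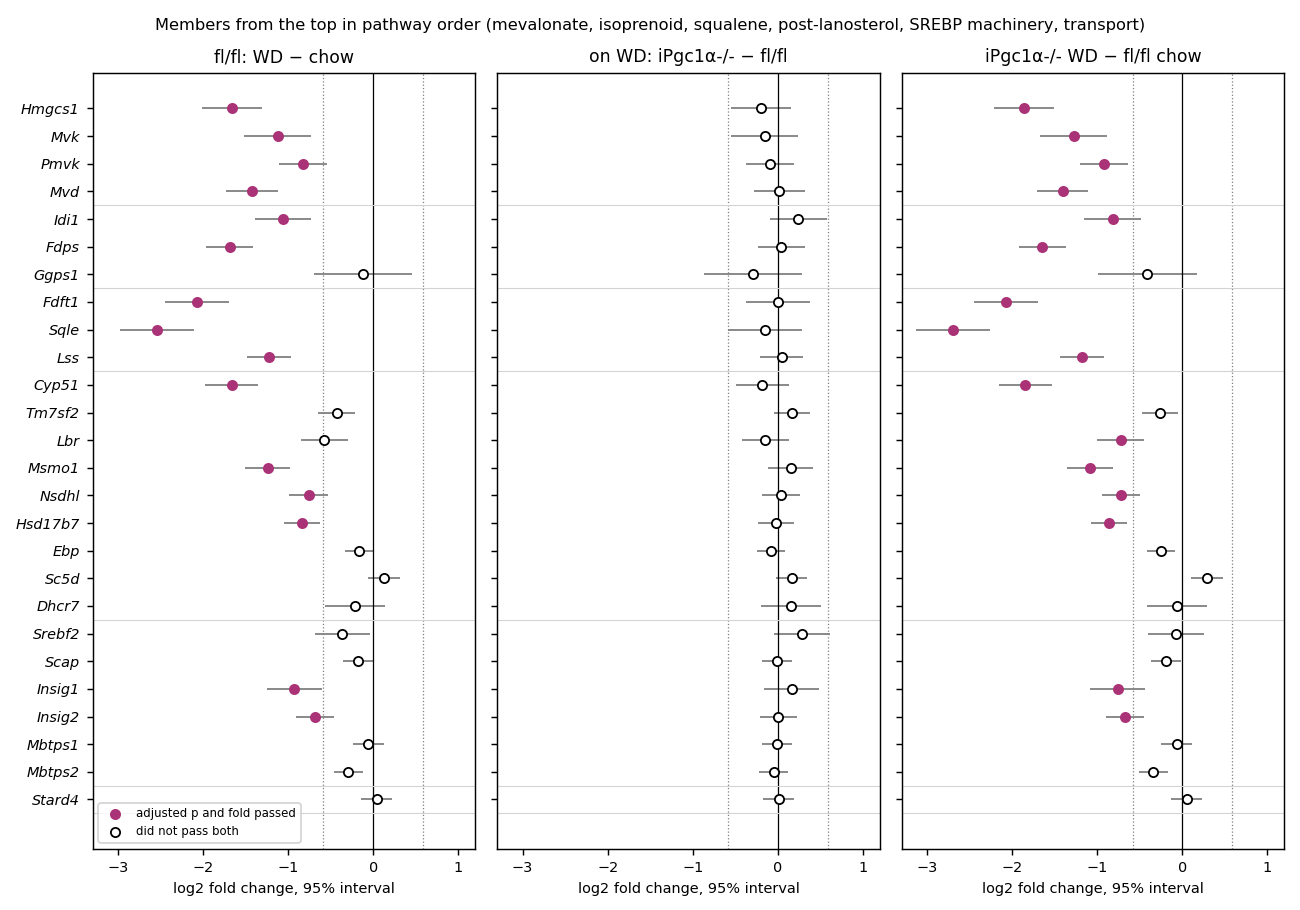
Log2 fold change of each of the 26 genes (points) with its 95% interval (bars), in pathway order from the top, for WD against chow in floxed mice (left), for iPgc1α-/- against floxed mice on WD (middle), and for iPgc1α-/- mice on WD against floxed mice on chow (right). Filled points passed an adjusted p of 0.05 and the 1.5-fold threshold (dotted lines): 15 genes in the left panel, 0 in the middle and 16 on the right.

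In the mevalonate steps, all 4 measured enzymes fell, with a median log2 fold change of -1.27. *Hmgcs1*, which condenses acetoacetyl-CoA with acetyl-CoA, had log2 signals on chow of 13.07 to 14.03 (median 13.64), on WD of 11.74 to 12.41 (median 11.91), and in the arrays labelled iPgc1α-/- of 11.35 to 12.27 (median 11.65). Its chow arrays lay above all 12 WD arrays, and the diet log2 fold change was -1.66 (standard error 0.17, adjusted p = 1.05e-06). *Mvk*, the mevalonate kinase, ranged from 11.27 to 12.48 on chow (median 12.21), from 10.60 to 11.36 on WD (median 10.86) and from 10.26 to 11.05 in the iPgc1α-/- group (median 10.80). Here the highest WD array exceeded the lowest chow array, and the log2 fold change was -1.12 (standard error 0.19, adjusted p = 0.000224). The second kinase, encoded by *Pmvk*, fell by 0.82 on the log2 scale (adjusted p = 0.000171) without overlap. *Mvd*, whose product makes isopentenyl diphosphate, was between 9.10 and 10.27 on chow (median 9.62), between 8.09 and 8.50 on WD (median 8.24) and between 8.01 and 8.52 in the iPgc1α-/- group (median 8.30). No WD array of either genotype reached the chow range, and the diet log2 difference was -1.43 (standard error 0.14, adjusted p = 1.02e-06).

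In the isoprenoid steps, the pair of enzymes on the way to squalene fell, and the enzyme of the geranylgeranyl branch did not pass. *Idi1*, the isopentenyl diphosphate isomerase, lay between 10.69 and 11.46 on chow (median 11.25), between 9.75 and 10.49 on WD (median 10.001) and between 9.93 and 10.71 in the iPgc1α-/- group (median 10.33). It differed by -1.06 with diet (standard error 0.16, adjusted p = 7.28e-05), with no overlap within the floxed mice, although the highest array labelled iPgc1α-/- lay just above the lowest chow array. *Fdps*, the farnesyl diphosphate synthase, spanned 12.15 to 13.04 on chow (median 12.74), 10.83 to 11.24 on WD (median 10.95) and 10.69 to 11.27 in the iPgc1α-/- group (median 11.06). All of its chow arrays were above all WD arrays of either genotype. The diet difference, -1.69 (standard error 0.13), had an adjusted p of 5.65e-08, the smallest among the members' brightest probes. *Ggps1*, whose product makes geranylgeranyl diphosphate for protein prenylation, changed by -0.12 (95% interval -0.70 to 0.46, adjusted p = 0.795). Its brightest probe is assigned on the array to a cDNA clone and not to a RefSeq transcript, and its other 5 probes had log2 fold changes from 0.06 to 0.25, none of which passed.

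The squalene steps held the largest differences, with a median of -2.07 over 3 enzymes. *Fdft1*, the squalene synthase that commits farnesyl diphosphate to sterols, gave 11.42 to 12.47 on chow (median 12.03), 9.57 to 10.38 on WD (median 9.88) and 9.52 to 10.38 in the iPgc1α-/- group (median 9.84). The gap between the lowest chow array and the highest WD array exceeded 1 log2 unit, and the log2 fold change was -2.07 (standard error 0.18, adjusted p = 1.48e-07). A second *Fdft1* probe gave -1.98 (adjusted p = 5.28e-08). *Sqle*, the squalene epoxidase and a rate-limiting enzyme, was read by a probe on the plus strand of chromosome 15 from 59162688 to 59162747 on mm9. Its log2 signal was 11.93 to 13.20 on chow (median 12.65), 9.79 to 10.43 on WD (median 10.09) and 9.35 to 10.66 in the iPgc1α-/- group (median 9.88). Every WD array of either genotype was below every chow array, and the diet log2 fold change was -2.55 (standard error 0.21, 95% interval -2.98 to -2.11, adjusted p = 8.78e-08). *Lss*, the lanosterol synthase that closes the sterol rings, was at 8.82 to 9.60 on chow (median 9.46), 7.88 to 8.42 on WD (median 8.12) and 7.97 to 8.50 in the iPgc1α-/- group (median 8.14). It fell by 1.23 without overlap (standard error 0.12, adjusted p = 8.48e-07), and both of its other probes passed in the same direction.

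**Figure D2:**
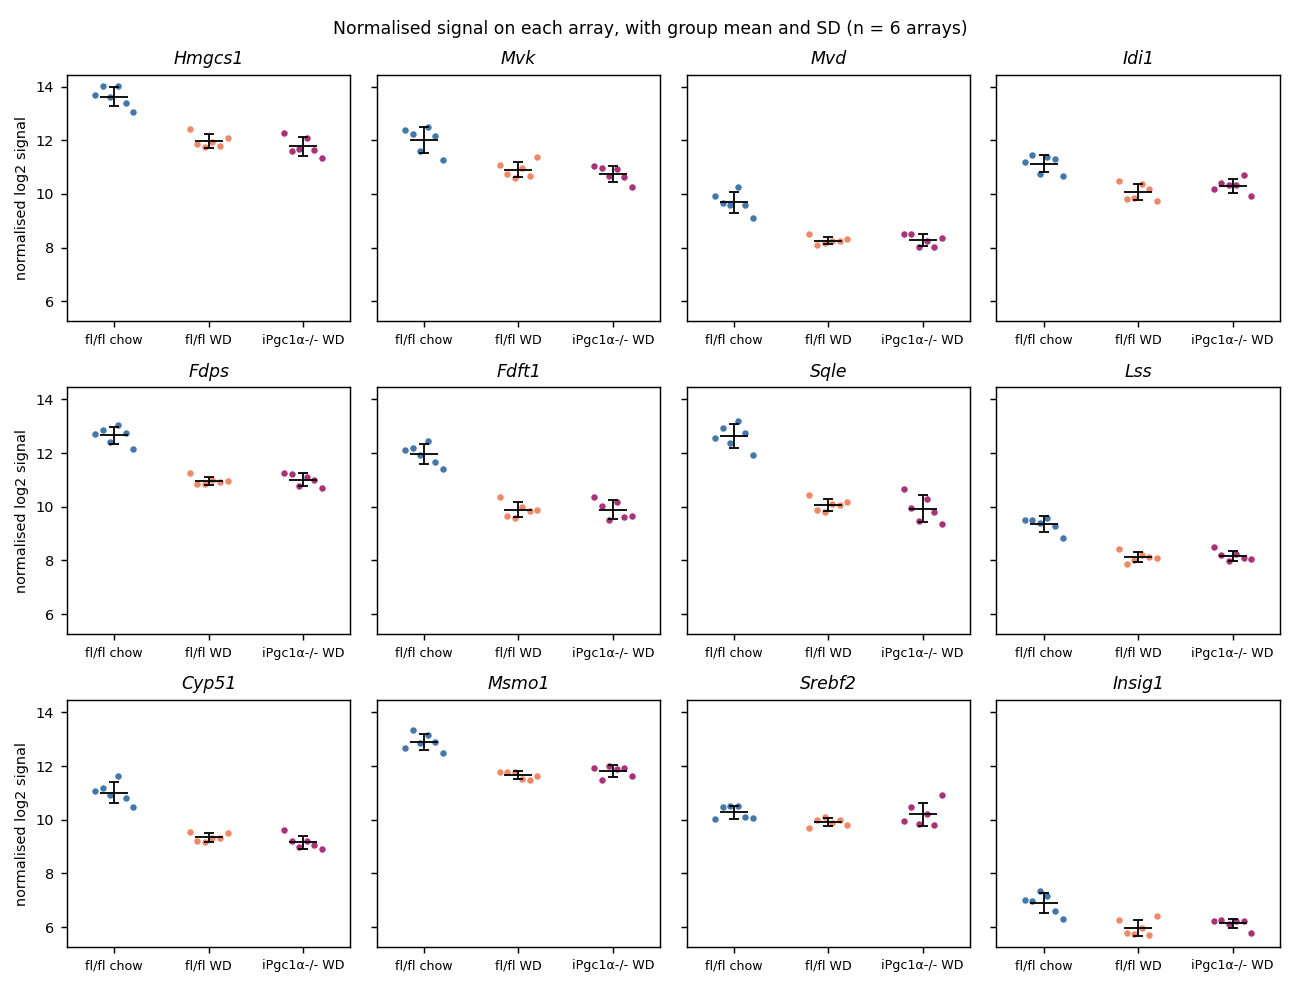
Normalised log2 signal on each array (points), with the group mean and SD (bars, n = 6 arrays), for the 10 genes with the largest diet difference and for *Srebf2* and *Insig1*. For *Sqle* the chow arrays lie between 11.93 and 13.20 and the WD arrays between 9.79 and 10.43, whereas the groups overlap for *Srebf2*.

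After lanosterol, 4 of the 9 measured enzymes passed. *Cyp51*, the lanosterol demethylase, was between 10.46 and 11.64 on chow (median 10.98), between 9.15 and 9.53 on WD (median 9.32) and between 8.92 and 9.61 in the iPgc1α-/- group (median 9.12). Its groups on chow and WD did not overlap, and the difference was -1.67 (standard error 0.15, adjusted p = 2.71e-07). *Msmo1*, the sterol C4-methyl oxidase, lay between 12.47 and 13.34 on chow (median 12.87), between 11.48 and 11.78 on WD (median 11.70) and between 11.46 and 12.01 in the iPgc1α-/- group (median 11.91). The spread on WD was narrow and wholly below the chow range, and the difference was -1.24 (standard error 0.13, adjusted p = 1.21e-06). Its partners in removing the C4 methyl groups, *Nsdhl* and *Hsd17b7*, fell by 0.76 (adjusted p = 3.81e-05) and by 0.84 (adjusted p = 7.74e-06). The other *Nsdhl* probe gave -0.54 (adjusted p = 0.00159), under the fold threshold. Other *Msmo1* probes gave -0.43 (adjusted p = 0.0207), under that threshold, and -1.27 (adjusted p = 2.15e-06). Other *Hsd17b7* probes gave -0.38 (adjusted p = 0.00812), also under it, and -0.85 (adjusted p = 1.15e-05). *Lbr* and *Tm7sf2* encode the sterol C14 reductases, and LBR is also a nuclear envelope protein. *Lbr* had an adjusted p of 0.00349 with a log2 fold change of -0.58, a 1.49-fold difference just under the fold threshold, and *Tm7sf2* had -0.43 (adjusted p = 0.00484).

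The enzymes that act last showed only small differences, and none passed. *Ebp*, the sterol isomerase, differed by -0.17 (95% interval -0.33 to -0.002, adjusted p = 0.135). *Sc5d*, the sterol desaturase, differed by 0.13 (95% interval -0.06 to 0.31, adjusted p = 0.32), and *Dhcr7*, which reduces 7-dehydrocholesterol, by -0.22 (95% interval -0.57 to 0.14, adjusted p = 0.381). All 3 intervals lay within a 1.5-fold difference either way. Compared as medians, the differences were -1.27 for mevalonate steps, -1.06 for isoprenoid steps, -2.07 for squalene steps and -0.58 for post-lanosterol steps.

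Of the 6 genes of the SREBP2 machinery, both INSIG genes passed. *Insig1*, whose product retains SCAP in the endoplasmic reticulum and which is itself a known SREBP target, spanned 6.31 to 7.34 on chow (median 6.99), 5.71 to 6.40 on WD (median 5.86) and 5.79 to 6.25 in the iPgc1α-/- group (median 6.21). Its chow and WD ranges overlapped slightly, and the log2 fold change was -0.93 (standard error 0.15, adjusted p = 0.000205). *Insig1* was the dimmest member, and the value was -0.63 with normexp background correction and -1.34 with the background-subtracted signal, both past the thresholds. *Insig2*, a second retention factor, fell by 0.68 without overlap (adjusted p = 0.000101), and its other 2 probes passed in the same direction. *Srebf2* itself, read on chromosome 15 of mm9 from 82035495 to 82035554, was between 10.04 and 10.51 on chow (median 10.27), between 9.70 and 10.11 on WD (median 9.92) and between 9.79 and 10.92 in the iPgc1α-/- group (median 10.09). The groups overlapped, and the log2 fold change of -0.36 did not pass (95% interval -0.69 to -0.03, adjusted p = 0.103). A second, dimmer *Srebf2* probe gave -0.56 (adjusted p = 0.000361), under the fold threshold. *Scap* differed by -0.18 (adjusted p = 0.135) and *Mbtps1*, the site-1 protease, by -0.06 (adjusted p = 0.67). *Mbtps2*, the site-2 protease, was lower by adjusted p alone, at -0.29 (adjusted p = 0.0146). The sterol transfer protein gene *Stard4*, a known SREBP2 target, differed by 0.04 (95% interval -0.14 to 0.23, adjusted p = 0.77).

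**Figure D3:**
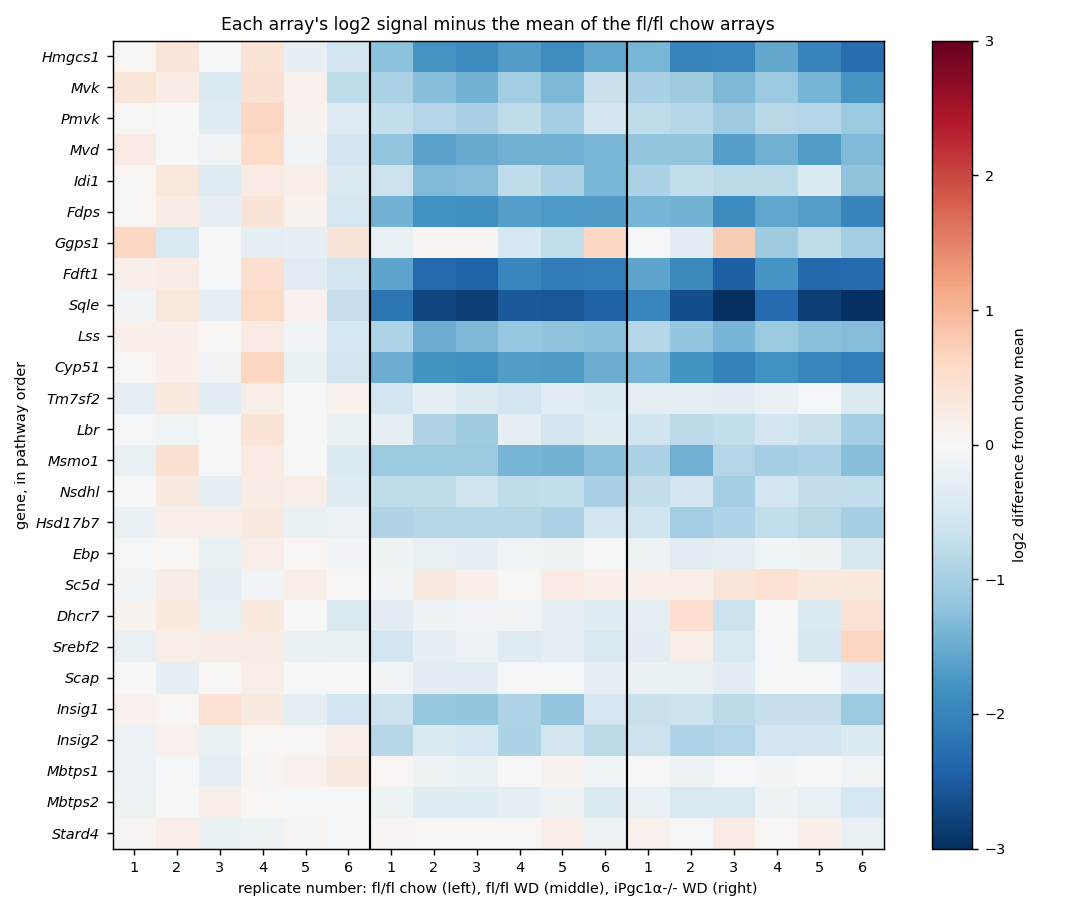
Log2 signal of each gene (rows, pathway order) on each array (columns, by group and replicate number) minus the gene's mean over the 6 chow arrays, from blue (lower) to red (higher). The enzymes from *Hmgcs1* to *Cyp51*, apart from *Ggps1*, are lower on the 12 WD arrays, and rows such as *Sc5d*, *Mbtps1* and *Stard4* stay near 0.

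Arrays of one group also differed among themselves across the pathway. Averaged over the 26 genes, the deviation from each gene's overall mean was 0.56 ± 0.19 on chow, -0.28 ± 0.08 on WD and -0.28 ± 0.11 in iPgc1α-/- mice on WD (SD, n = 6 arrays each, log2). Chow values ran from 0.29 to 0.83. Replicate 6 on chow had the lowest signal of its group for 13 of the 15 genes that fell, and replicate 4 the highest for 10 of them. In the arrays labelled iPgc1α-/-, replicate 1 was highest for 10 and replicate 6 lowest for 8. Within each of the 3 slides all 15 genes were lower on WD, with median differences of -1.44, -0.88 and -1.40.

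**Figure D4:**
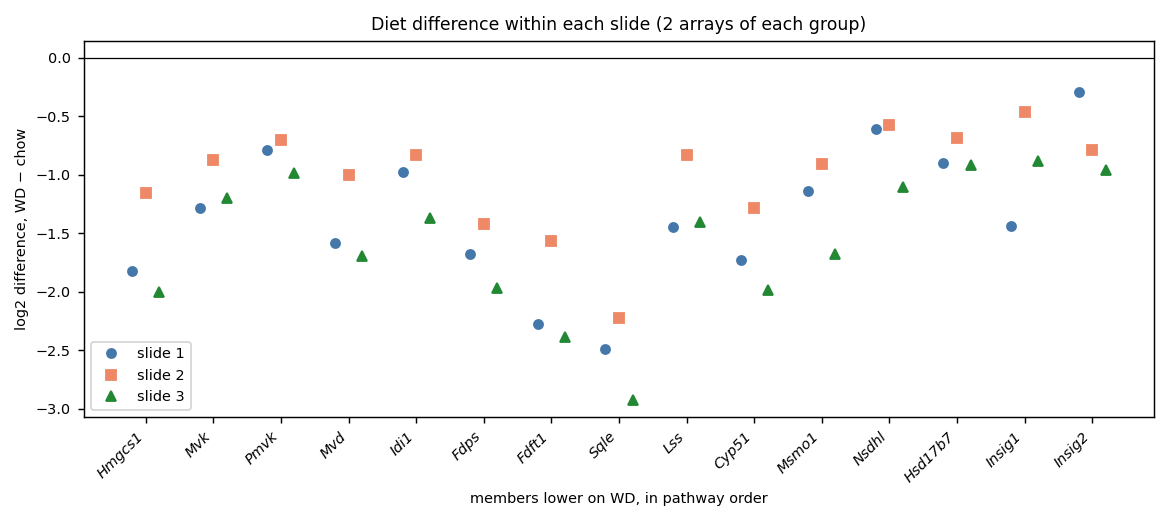
Difference in mean log2 signal between WD and chow in floxed mice within each slide (2 arrays of each group per slide), for the 15 genes that fell, in pathway order. All 45 points lie below 0, and slide 2 holds the smallest median difference, -0.88.

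Genes of neighbouring pathways were read beside the set, in the diet comparison, where 3.22% of all genes rose and 5.20% fell past both thresholds. LXR receptors are activated by oxysterols and raise cholesterol efflux, and 6 of the 8 genes of the LXR list rose on WD while none fell (median log2 fold change 0.66). *Abca1*, a cholesterol efflux pump, rose by 1.84 (adjusted p = 1.83e-05), and *Abcg5* and *Abcg8*, which together export sterols into the lumen, by 0.64 (adjusted p = 0.00106) and 0.93 (adjusted p = 5.02e-05). *Mylip*, a ubiquitin ligase for lipoprotein receptors, rose by 1.13 (adjusted p = 6.56e-06), and *Nr1h3*, which encodes LXRα, by 0.67 (adjusted p = 3.37e-06). *Lpcat3*, a phospholipid acyltransferase, completed the 6 at 0.61 (adjusted p = 0.000143).

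In the list for SREBP processing and sterol sensing, 1 of 10 genes rose and 1 fell. The riser was *Srebf1*, the SREBP1 gene and a known LXR target, at 1.54 (adjusted p = 6.83e-08), and the other was the ubiquitin ligase gene *Rnf145* at -0.63 (adjusted p = 0.0138). Of 10 fatty acid synthesis and desaturation genes, 2 rose and 2 fell. The desaturase genes *Scd1* and *Scd2* rose by 6.14 (adjusted p = 1.91e-12) and 2.54 (adjusted p = 5.84e-06), and the fatty acid synthase gene *Fasn* fell by 0.66 (adjusted p = 0.0026), as did the acetyl-CoA carboxylase gene *Acacb* by 1.04 (adjusted p = 0.00552).

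Among 8 genes that supply acetyl-CoA and NADPH, 2 rose and none fell. These were the NADPH-producing *Me1*, at 1.94 (adjusted p = 1.07e-05), and *Idh1*, at 1.18 (adjusted p = 1.44e-07). *Acly*, which makes cytosolic acetyl-CoA, had -0.52 (adjusted p = 0.000782), under the fold threshold. None of the 10 genes of the isoprenoid branches and none of the 9 of cholesterol esterification and transport passed in either direction. In the last list the largest difference was that of *Tmem97*, -0.55 (adjusted p = 0.000833), under the fold threshold. *Soat2*, the enterocyte enzyme that esterifies cholesterol, had 0.38 (adjusted p = 0.00486), and *Npc1l1*, the sterol uptake transporter, had 0.24 (adjusted p = 0.265).

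**Figure D5:**
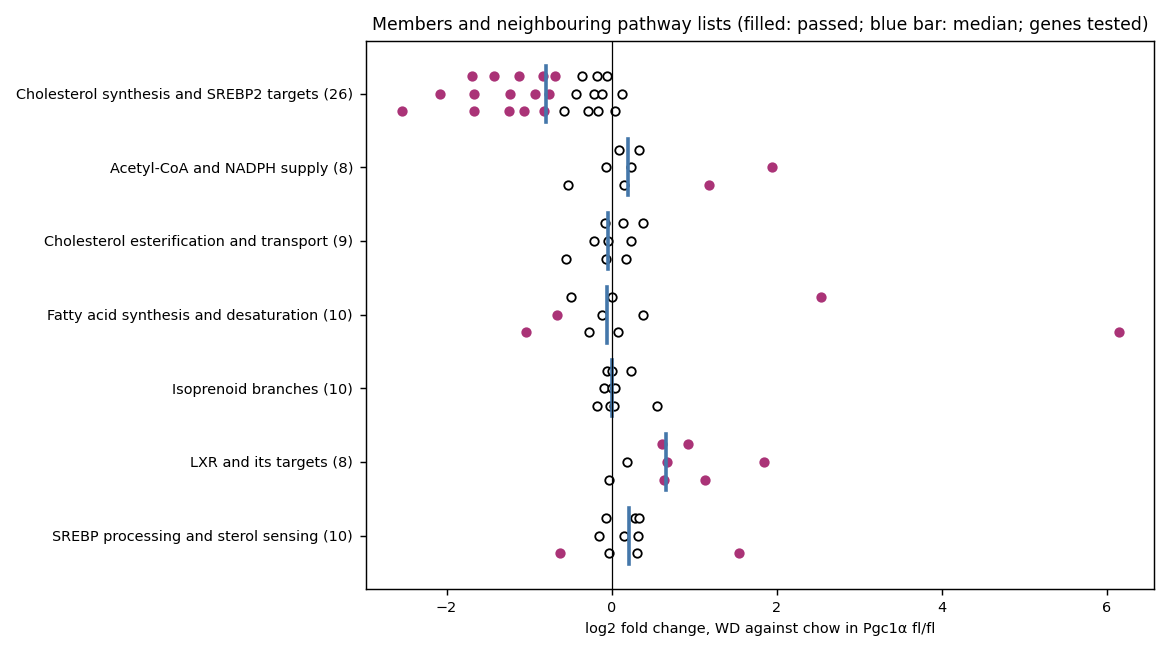
Diet log2 fold change of each gene (points) for the 26 genes and for 6 lists of neighbouring pathways, with the number of genes tested in parentheses. Filled points passed the adjusted p and fold thresholds and blue bars are medians, which lie at -0.79 for the 26 genes and at 0.66 for the LXR list.

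Marker genes of several cell types also moved with diet, in a comparison where 5.20% of all genes fell and 3.22% rose past both thresholds. All 6 T cell markers fell (median -1.68), led by the granzyme gene *Gzma* at -2.17, and the log2 of their summed signal was 13.63 to 15.49 on chow against 12.44 to 13.20 on WD, over the 17 arrays with every probe. Of the 6 B and plasma cell markers 5 fell (median -1.97), among them *Cd79b* at -2.60, and the sums were 10.68 to 12.15 on chow and 7.81 to 10.36 on WD. Among 8 proliferation genes 3 fell (median -0.55), with sums of 13.62 to 14.40 on chow and 13.05 to 13.74 on WD. Likewise 4 of the 6 goblet cell genes fell (median -0.67). The goblet sums were 18.13 to 18.54 on chow and 17.10 to 18.25 on WD, over the 17 arrays with every goblet probe. Of 10 enterocyte genes 3 rose and 1 fell, and their sums were 19.59 to 19.89 on chow and 19.82 to 20.06 on WD. In the crypt list, 0 of 6 genes passed. On the arrays labelled iPgc1α-/- the T cell sums were 12.73 to 13.49 and the B and plasma cell sums 8.82 to 9.98. The part of these shifts in the pathway's fall was not tested.

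The second comparison asked whether loss of intestinal Pgc1α altered the pathway on WD. None of the 26 genes passed between arrays labelled iPgc1α-/- and those of floxed mice, where 0.0743% of all genes were lower and 0.0603% higher by limma with both thresholds. At the brightest probes none had an unadjusted p under 0.05, and the smallest adjusted p was 0.574. The log2 fold changes ran from -0.29 to 0.28 with a median of 0.01, the same as the median over all genes. For 23 of the 26 genes the 95% interval lay within a 1.5-fold difference either way, and the exceptions were *Ggps1*, *Sqle* and *Srebf2*.

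At the brightest probes, the 5 members with the largest genotype differences were *Ggps1*, *Srebf2*, *Idi1*, *Hmgcs1* and *Cyp51*. *Ggps1* had -0.29 (95% interval -0.87 to 0.29), *Srebf2* had 0.28 (-0.04 to 0.61), *Idi1* had 0.24 (-0.09 to 0.57), *Hmgcs1* had -0.20 (-0.55 to 0.16) and *Cyp51* had -0.18 (-0.50 to 0.13). The other 5 *Ggps1* probes, all dimmer, had genotype differences from -0.05 to 0.14, and none passed. A second *Srebf2* probe gave 0.13 (adjusted p = 0.696). Among the members' dimmer probes, the largest differences in either direction were 0.49 for *Stard4* (adjusted p = 0.288) and 0.36 for *Sc5d* (adjusted p = 0.561). Next came *Msmo1* at 0.36 (adjusted p = 0.432) and *Nsdhl* at 0.29 (adjusted p = 0.432). No dimmer probe passed, but the ranking depends on the probe read. *Sqle*, which differed most with diet, had -0.15 (-0.59 to 0.28). Within slides the median genotype difference over the 26 genes was 0.06, -0.05 and 0.00. No marker list had a gene that passed in this comparison.

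Of the 6 neighbouring lists, the genotype comparison passed 1 gene in all, *Scd1*, which was higher by 1.16 (adjusted p = 0.045). That call was lost in 4 of 11 other settings and in 13 of 18 fits with 1 array left out, where its value stayed between 1.03 and 1.32. The LXR list, with 6 genes that rose on WD, had a median genotype difference of 0.09 and none that passed. For *Abca1* the genotype difference was -0.05 (adjusted p = 0.964), and for *Srebf1* it was 0.16 (adjusted p = 0.705).

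The third comparison set iPgc1α-/- mice fed WD against floxed mice fed chow, so that diet and genotype differed together. It shares its chow arrays with the diet comparison and its iPgc1α-/- arrays with the genotype comparison, and is therefore no independent repeat of either. Here 16 of the 26 genes were lower, against 6.85% of all genes, and none was higher, against 4.94%. In 15 genes the groups did not overlap, against 8.63% of all genes. *Sqle* differed by -2.70 (diet comparison -2.55), *Fdft1* by -2.07 (diet comparison -2.07) and *Hmgcs1* by -1.86 (diet comparison -1.66). *Lbr* passed both thresholds at -0.73 (adjusted p = 0.000337). By adjusted p alone 1 gene was higher, *Sc5d*, at 0.29 (adjusted p = 0.0157), against 16.8% of all genes. A second, dimmer *Sc5d* probe gave 0.70 (adjusted p = 0.00868), past both thresholds, so the call depends on the probe read. By adjusted p alone, a dimmer *Stard4* probe was also higher, at 0.576 (adjusted p = 0.00495). So was a dimmer *Ggps1* probe, at 0.32 (adjusted p = 0.0305), while the brightest probes of both genes were not.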

How the data were processed

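Per the labels and the study's methods, ileum cells were isolated and labelled RNA was hybridised to one-colour Agilent arrays. The authors deposited spot intensity values from Agilent Feature Extraction 10.10.1.1, not normalised between arrays, and a table of log2 values that the authors had filtered, batch-corrected and normalised. Washing bath and labelling serial per array are not given in the sources used here, and their correction was left out.

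Control and outlier spots were dropped and spots of a probe averaged. Probes well above background on at least 5 arrays of a group were retained (32726). Median signals were log2 transformed and normalised with a reimplementation of qsmooth (window 0.05), which assumes similar distributions within a group and can absorb a global shift. One limma 3.58.1 model of the 3 groups in R 4.3.3 gave log2 fold changes, and p-values were adjusted by Benjamini-Hochberg over all tested probes. A gene was called where its brightest probe had an adjusted p of at most 0.05 and differed more than 1.5-fold. The procedure was also run on simulated arrays with planted changes and independent noise for each probe. Such arrays lack differences shared across genes of an array, so they cannot test how the procedure handles these. Promoters were searched in Python 3.11.15 with pandas 2.3.3 and plots drawn with matplotlib 3.10.9.

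Members and lists were chosen with earlier results of these data known. Values on every array were summarised for *Srebf2* and the 10 called genes with the largest diet difference, with up to 3 called genes per neighbouring list. *Insig1*, the genes named for genotype and further list genes were chosen after their values were seen. The labels do not state whether arrays of a group come from separate cohorts, so p-values measure the spread between these arrays, and the number of arrays limits the precision (median standard error 0.13 for the 26 genes). Coordinates of probes are on mm9 as in the files. Alternatives were other signals, background corrections, normalisations, filters, the authors' log2 values, slide and replicate blocks, 2-group fits, averaged probes, no fold threshold and each array left out.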

Additional observations from a re-analysis of the deposited data

Results flagged for a closer look

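In 4 of the 78 groups of 6 arrays (26 genes in 3 groups), the highest or lowest array lay far from the nearest other array relative to the range of the group. About 1 in 20 groups is flagged by chance. The array of replicate 4 of Pgc1α fl/fl on chow was high for *Lbr*, at a log2 signal of 12.24 against 11.86 for the nearest array. Replicate 3 of iPgc1α-/- on WD was low for *Nsdhl*, at 7.27 against 7.55. Replicate 6 of Pgc1α fl/fl on WD was high for *Hsd17b7*, at 10.42 against 10.15. Replicate 6 of iPgc1α-/- on WD was low for *Insig1*, at 5.79 against 6.11.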

How the results depend on the processing

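The 15 genes that fell with diet were called under all 11 alternatives that kept both thresholds, and the count was 18 with the adjusted p alone and 15 to 16 with each array left out. The additional gene in the latter was *Lbr*, which passed in 9 of the 18 fits (without chow replicate 1, 2, 3 or 6, floxed WD replicate 1, 4, 5 or 6, or iPgc1α-/- replicate 5), with log2 fold changes from -0.65 to -0.47 over the 18. The genotype count was 0 under every alternative run. The third comparison gave 15 to 19 genes, and 16 to 17 with each array left out. The diet value of *Mbtps1* turned to 0.0087 when the background-subtracted signal, and to 0.0090 when the median signal, was scaled to the 75th percentile, and that of *Ggps1* to 0.11 with the mean of its probes. With each array left out, *Ggps1* ranged from -0.26 to 0.0017 (above 0 without chow replicate 1) and *Stard4* from -0.0040 to 0.085 (below 0 without chow replicate 3). The cause was not tested. Among 26 genotype values, 11 changed sign in some alternative, always at sizes up to 0.091, and none was called.

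Same-numbered arrays were not shown to be paired, since 4 of 6 pairs in the diet comparison, 3 of 6 in the genotype comparison and 2 of 6 in the third had a correlation of deviations over 0.1, and 4, 3 and 1 arrays correlated best with their own number. With the replicate number as a block the counts were 15, 0 and 16.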
